A study of Mus musculus with 7 samples.

Results

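A set of 8 genes of glucocorticoid signalling in macrophages is described here, out of 23337 genes listed in every library. They are the glucocorticoid receptor Nr3c1, the cortisone-activating enzyme Hsd11b1 and 6 genes known to be induced by glucocorticoids, namely Tsc22d3, Klf9, Sgk1, Fkbp5, Per1 and Ddit4. The genes were named for their function and selected on their TPM across the 4 groups of these same libraries, so their transcript levels and fold changes are given as a description, with no p-value. Calls from the fit are listed for them beside the share of all genes, and are not tests of them. All 8 were found in the tables. A total of 7 passed the filter used for the statistical fit, a mean of at least 1 TPM over the 7 libraries, and Hsd11b1, with a mean of 0.914 TPM, did not.

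The libraries are RNA sequencing of bone marrow-derived macrophages, which are marrow cells turned into macrophages by the growth factor M-CSF. Marrow came from mice labelled male, of 6 to 8 weeks, either Tgm2 knockout (KO) or wild type (WT). The deleted gene encodes transglutaminase 2, which joins proteins by crosslinks. The groups were KO with lipopolysaccharide (KO LPS, n = 2), WT with lipopolysaccharide (WT LPS, n = 2), untreated KO (KO M0, n = 1) and untreated WT (WT M0, n = 2). Lipopolysaccharide (LPS), a component of the bacterial outer membrane, was given at 10 ng/ml for 6 hours, and every group shared the 7-day culture in M-CSF at 25 ng/ml. The agents named in the labels are M-CSF and LPS, and no glucocorticoid is among them. The sources used here do not give the making of the Tgm2 allele or the strain. Values are TPM, a transcript measure that corrects for length and is set to the same sum of 1000000 in each library, so that depth is unknown. The labels do not say whether the replicates are different mice or different cultures, and p-values therefore measure only the spread between these libraries, which may be technical.

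The glucocorticoid receptor is a steroid-activated transcription factor that is held in the cytoplasm by heat shock proteins and their partners until it binds hormone. In the nucleus it binds DNA at palindromic response elements and raises genes such as Tsc22d3 and Fkbp5, and in macrophages it also lowers many cytokine and chemokine genes. Hsd11b1 makes the active hormone from its inactive keto form inside the cell.

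Promoter sequences were available for 7 of the 8 genes in the RefSeq table of mouse build GRCm38.p6, as 15 windows that run from 250 bases before to 50 bases after an annotated start. The table holds no entry for Nr3c1. Windows were searched on both strands for the full receptor element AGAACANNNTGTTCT, for its single arm AGAACA, for the forkhead core GTAAACA that FoxO factors bind, and for the E-box CACGTG that clock factors bind. The full element was found in 3 of 32817 windows of all genes, or 0.00914%, and a Sgk1 window is among them. The single arm was found in 19.0% of all windows, the forkhead core in 3.65% and the E-box in 7.15%. The stretches shown belong to the 3 of the 7 fitted genes whose level in KO LPS libraries was furthest below that in WT LPS libraries, and each is cut where the first annotated exon of GENCODE M21 begins. Capitals mark the searched motifs.
Sgk1, chr10:21993640-21993889, plus strand: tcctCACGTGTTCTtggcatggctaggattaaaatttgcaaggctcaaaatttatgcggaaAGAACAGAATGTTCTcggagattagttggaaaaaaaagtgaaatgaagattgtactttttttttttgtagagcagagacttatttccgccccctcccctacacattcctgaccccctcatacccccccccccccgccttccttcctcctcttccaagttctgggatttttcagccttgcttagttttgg
Tsc22d3, chrX:140600660-140600772, minus strand: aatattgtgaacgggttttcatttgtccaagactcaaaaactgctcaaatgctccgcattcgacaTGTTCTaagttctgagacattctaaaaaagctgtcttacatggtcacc
Klf9, chr19:23140976-23141225, plus strand: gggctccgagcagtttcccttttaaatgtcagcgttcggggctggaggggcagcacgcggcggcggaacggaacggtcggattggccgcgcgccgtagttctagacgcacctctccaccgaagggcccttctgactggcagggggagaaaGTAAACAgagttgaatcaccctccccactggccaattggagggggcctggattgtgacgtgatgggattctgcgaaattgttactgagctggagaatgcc
In the Sgk1 stretch the full element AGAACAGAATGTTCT lies at chr10:21993701-21993715 and begins 189 bases before the start. The E-box CACGTG at its left end shares letters with a further arm, TGTTCT. The Tsc22d3 stretch holds a single arm, TGTTCT, which begins 185 bases before the start, and the Klf9 stretch holds the forkhead core, which begins 100 bases before the start. Among the other genes, windows of Fkbp5 and Per1 held the E-box and the Hsd11b1 window held the forkhead core. Sgk1 has 6 annotated windows and Tsc22d3 has 3, and TPM summed per gene do not show which start was used. The Sgk1 window shown is the only Sgk1 window with the full element, and the Tsc22d3 window shown is the only Tsc22d3 window with an arm. The other Sgk1 windows held a single arm or neither motif of the receptor, and the other Tsc22d3 windows held neither. A match is a description of the letters and not evidence of binding.

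Tgm2 itself was measured at 19.4 and 19.2 TPM in KO LPS libraries, 233 and 199 TPM in WT LPS libraries, 50.7 TPM in the KO M0 library, and 433 and 368 TPM in WT M0 libraries. The knockout libraries were below every wild-type library of the same treatment, as labelled. All libraries are labelled male, yet Xist, the RNA that silences an X chromosome in female cells, was at 47.2 and 55.4 TPM in WT LPS libraries and at most 0.00535 TPM in all others. The Y-linked gene Ddx3y was present in every library and was at 41.9 and 41.6 TPM in KO LPS libraries and at 20.3 and 23.5 TPM in WT LPS libraries. The 4 fitted Y-linked genes of the list, Ddx3y, Eif2s3y, Kdm5d and Uty, were all called higher in KO LPS than in WT LPS (limma, adjusted p under 0.05). Of all genes, 4.59% were called higher there. For Ddx3y the call was lost when any single LPS library was left out. WT M0 replicate 1 stood further from WT M0 replicate 2 (median absolute difference 0.221 on the log2 scale) than the KO M0 library did (0.0959). All 10 macrophage markers averaged at least 1 TPM, and their sum ranged over 39549 to 40931 TPM in KO LPS, 39025 to 42121 TPM in WT LPS, 51696 TPM in KO M0 and 49224 to 53747 TPM in WT M0 libraries.

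The receptor transcript Nr3c1 was present in every library and was higher with LPS in both genotypes. It was measured at 104 and 133 TPM in KO LPS libraries, 97.4 and 98.8 TPM in WT LPS libraries, 59.3 TPM in the KO M0 library, and 42.9 and 59.7 TPM in WT M0 libraries. Every LPS library was above every untreated library. The log2 fold change, taken on log2(TPM + 1) as throughout, was 0.97 ± 0.24 (SE) for KO LPS over KO M0 and 0.94 ± 0.20 for WT LPS over WT M0. Between KO LPS and WT LPS it was 0.26 ± 0.20, and between KO M0 and WT M0 it was 0.23 ± 0.24, where the KO M0 value lies within the range of the WT M0 libraries. The order of group means was KO LPS, WT LPS, KO M0 and WT M0, and in neither treatment did the genotypes differ by much more than the standard error, although the KO LPS libraries were above the WT LPS libraries. In bulk RNA, fewer cells of a type and less RNA per cell cannot be told apart, here and for all genes below.

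Hsd11b1, which regenerates active glucocorticoid, was at the low end of detection. It was at 1.07 TPM in KO LPS replicate 1 and listed at 0 in KO LPS replicate 2, against 2.26 and 2.31 TPM in the WT LPS libraries. It was at 0.104 TPM in the KO M0 library, and in WT M0 it was listed at 0 in replicate 1 and at 0.659 TPM in replicate 2. The WT LPS libraries were thus above all others, and no fold change is given because of the values listed at 0. The opposing enzyme Hsd11b2, which inactivates the hormone, was at most 0.402 TPM in any library. H6pd, which supplies the cofactor for the Hsd11b1 reaction, was at 43.3 and 37.2 TPM in KO LPS, 49.2 and 51.3 TPM in WT LPS, 48.0 TPM in KO M0, and 49.4 and 51.8 TPM in WT M0 libraries, and did not pass the test between KO LPS and WT LPS (limma, log2 fold change -0.32 ± 0.16, adjusted p = 0.316). The mineralocorticoid receptor Nr3c2, the closest relative of Nr3c1, was at most 0.658 TPM.

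**Figure D1:**
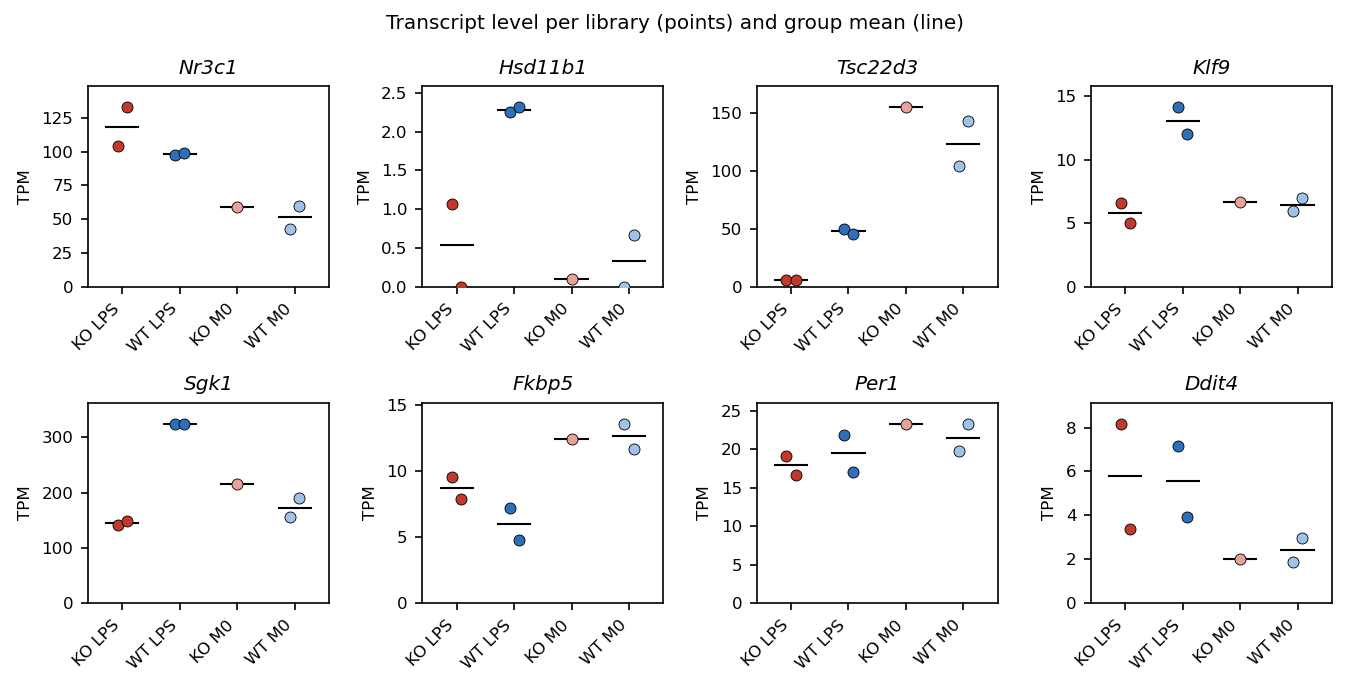
Transcript level in TPM (vertical axes, linear from 0, own scale per gene) of the 8 genes in each library (points) with the group mean (line), for KO LPS, WT LPS, KO M0 and WT M0. Tsc22d3 is at 6.00 and 5.75 TPM in KO LPS libraries and at 49.9 and 45.6 TPM in WT LPS libraries, whereas Per1 overlaps between those groups.

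Tsc22d3 had the widest range of group means, as a fold, of the 7 fitted genes. It encodes GILZ, a leucine zipper protein known as a glucocorticoid-induced brake on NF-κB and AP-1. Its level was 6.00 and 5.75 TPM in KO LPS libraries, 49.9 and 45.6 TPM in WT LPS libraries, 154.5 TPM in the KO M0 library, and 103.6 and 142.8 TPM in WT M0 libraries. Both KO LPS libraries were far below every other library, and the WT LPS libraries were below every untreated one. The KO LPS mean of 5.88 ± 0.18 TPM (SD, n = 2) was 12.3% of the WT LPS mean of 47.7 ± 3.03 TPM (SD, n = 2). On the log2 scale the fold change was -2.82 with a standard error of 0.19. With LPS the level in KO cells was 3.80% of that in the untreated KO library (log2 fold change -4.50 ± 0.23), and in WT cells it was 38.7% of the untreated mean (-1.33 ± 0.19). The LPS change in KO minus the LPS change in WT was -3.17 ± 0.30 on the log2 scale. Without LPS the KO M0 library was above both WT M0 libraries, with a log2 fold change of 0.34 ± 0.23.

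Tsc22d3 lies on the X chromosome (140539528 to 140600522), and the WT LPS libraries are those with Xist. Of 345 X-linked genes tested between KO LPS and WT LPS, 12 were higher and 12 lower (6.96% called), with a median log2 fold change of 0.05. Autosomal genes had 7.14% called and a median of 0.03. The part of what sets the WT LPS libraries apart in the Tsc22d3 difference was not tested.

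Sgk1 and Klf9 shared another pattern, in which WT cells were higher with LPS and KO cells were not. Sgk1, a kinase of ion transport and survival signalling, was measured at 142 and 149 TPM in KO LPS libraries, 324.0 and 323.6 TPM in WT LPS libraries, 215 TPM in the KO M0 library, and 155 and 191 TPM in WT M0 libraries. The KO LPS libraries were the lowest of all and the WT LPS libraries the highest. The KO LPS mean was 44.8% of the WT LPS mean (log2 fold change -1.15 ± 0.16). The log2 fold change with LPS was -0.57 ± 0.19 in KO cells and 0.91 ± 0.16 in WT cells, and the difference between these changes was -1.48 ± 0.25. The sign of the LPS change thus differed between genotypes. In KO cells the change rests on 1 untreated library and was -0.32 with median-ratio scaling. The median over all genes in that comparison was -0.24 without this scaling. Whether the receptor element in a Sgk1 promoter window bears on this was not tested.

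Klf9, a Krüppel-like transcription factor, was present at lower levels. It was at 6.61 and 5.05 TPM in KO LPS libraries, 14.1 and 12.0 TPM in WT LPS libraries, 6.63 TPM in the KO M0 library, and 5.93 and 6.96 TPM in WT M0 libraries. The WT LPS libraries were above all others, which lay between 5.05 and 6.96 TPM. The KO LPS mean was 44.6% of the WT LPS mean, with a log2 fold change of -1.05 ± 0.21. The log2 fold change with LPS was 0.92 ± 0.21 in WT cells. In KO cells it was -0.17 ± 0.26, within its standard error, and its sign turned under other scalings of the libraries (0.05 with median-ratio scaling and 0.17 with quantile normalization).

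Fkbp5, a co-chaperone that lowers the receptor's affinity for hormone and is itself induced by it, was lower with LPS. It was measured at 9.57 and 7.90 TPM in KO LPS libraries, 7.18 and 4.76 TPM in WT LPS libraries, 12.4 TPM in the KO M0 library, and 13.6 and 11.7 TPM in WT M0 libraries. All LPS libraries were below all untreated ones, and the KO LPS libraries were above the WT LPS libraries by a narrow margin. The log2 fold change was 0.50 ± 0.22 for KO LPS over WT LPS, -0.47 ± 0.27 for KO LPS over KO M0 and -0.98 ± 0.22 for WT LPS over WT M0. Between KO LPS and WT LPS the value was 0.75 without WT LPS replicate 1 and 0.25 without WT LPS replicate 2, and for KO LPS over KO M0 it was -0.24 with median-ratio scaling and -0.18 with quantile normalization. Untreated cells differed by -0.01 ± 0.27 (KO M0 over WT M0).

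Per1 and Ddit4 overlapped between KO LPS and WT LPS. Per1, a repressor of the circadian clock, was at 19.1 and 16.7 TPM in KO LPS libraries, 21.9 and 17.0 TPM in WT LPS libraries, 23.2 TPM in the KO M0 library, and 19.7 and 23.2 TPM in WT M0 libraries. Its log2 fold change was -0.11 ± 0.19 for KO LPS over WT LPS (0.06 without WT LPS replicate 1), -0.36 ± 0.24 for KO LPS over KO M0 and -0.14 ± 0.19 for WT LPS over WT M0 (0.07 with median-ratio scaling). Its level thus varied little over the 4 groups. Ddit4, an inhibitor of mTORC1 signalling also known as REDD1, was at 8.16 and 3.38 TPM in KO LPS libraries, 7.17 and 3.92 TPM in WT LPS libraries, 2.03 TPM in the KO M0 library, and 1.88 and 2.95 TPM in WT M0 libraries. Replicate 1 was well above replicate 2 in both LPS groups, and all LPS libraries were above all untreated ones. The log2 fold change of Ddit4 was 1.06 ± 0.44 for KO LPS over KO M0 and 0.91 ± 0.36 for WT LPS over WT M0. In KO cells it was 0.53 when KO LPS replicate 1 was left out and 1.60 when replicate 2 was, and in WT cells it was 0.54 without WT LPS replicate 1 and 1.28 without WT LPS replicate 2. The difference between KO LPS and WT LPS turned with the library left out, at -0.53 without KO LPS replicate 1 and 0.53 without KO LPS replicate 2.

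**Figure D2:**
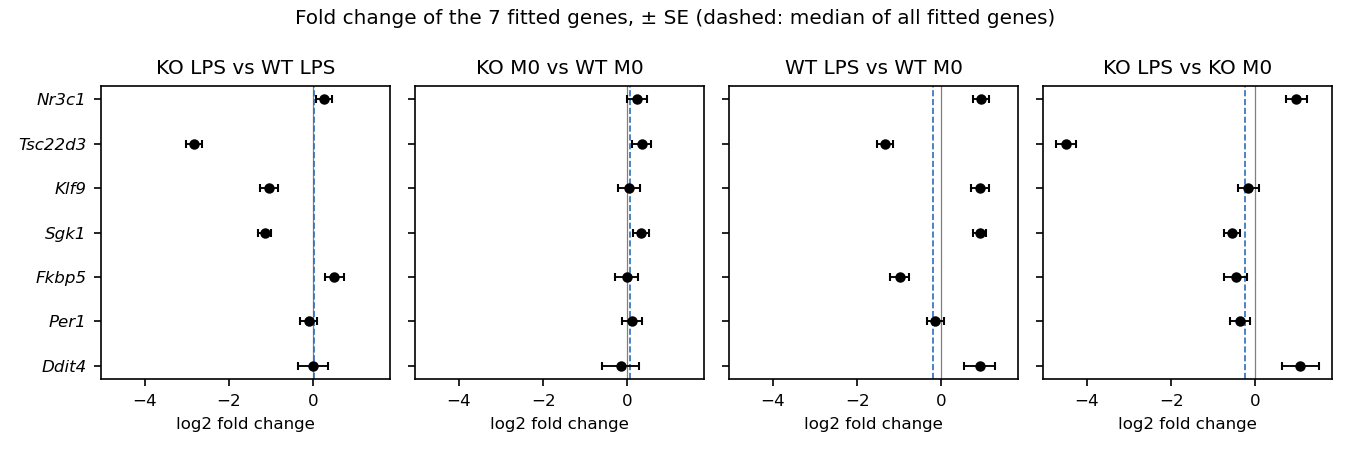
Log2 fold change on log2(TPM + 1) (horizontal axis, bars ± SE) of the 7 genes that passed the filter, in the 4 pairwise comparisons. Tsc22d3 is at -2.82 for KO LPS over WT LPS and at 0.34 for KO M0 over WT M0, and Fkbp5 is at 0.50 and -0.01.

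Counted over the 7 fitted genes, 3 were called lower in KO LPS than in WT LPS (Tsc22d3, Klf9 and Sgk1) and 0 higher, beside 2.58% of all 11096 genes called lower, 4.59% called higher and 7.16% in either direction. A call is an adjusted p under 0.05 from limma with Benjamini-Hochberg adjustment. The count was 2 of 7 or 8 fitted genes, without Klf9, when KO LPS replicate 2 or WT LPS replicate 1 was left out, with no filter on low values and at an adjusted p of 0.01. Without LPS, 0 of 7 were called between KO M0 and WT M0, 0 of 7 had an unadjusted p under 0.05, and 0.00901% of all genes were called, which is Tgm2 alone. With LPS, 3 of 7 were called in KO cells, Nr3c1 higher and Tsc22d3 and Sgk1 lower, beside 38.1% of all genes (13.8% higher and 24.3% lower). In WT cells 5 of 7 were called, with Nr3c1, Klf9 and Sgk1 higher and Tsc22d3 and Fkbp5 lower, beside 44.6% of all genes (15.0% higher and 29.6% lower). The LPS change itself was called different between genotypes for Tsc22d3 and Sgk1, both with a lower change in KO cells, beside 1.37% of all genes (0.847% higher and 0.523% lower). Groups whose libraries do not overlap are common at this size, at 49.7% of all genes between KO LPS and WT LPS, 60.3% between KO M0 and WT M0, 87.7% between KO LPS and KO M0 and 73.5% between WT LPS and WT M0. Because the genes were picked with these values known, neither the counts nor the calls of single genes are tests of them, and nothing is read from either. The call of Sgk1 in KO cells was lost with median-ratio scaling, with no filter, at an adjusted p of 0.01, with the compared groups alone, without both WT LPS libraries and without any single LPS library. The call of Sgk1 for the different LPS change was lost without KO LPS replicate 1, WT LPS replicate 1, WT LPS replicate 2 or WT M0 replicate 1, and at an adjusted p of 0.01. With no filter on low values neither Tsc22d3 nor Sgk1 was called for it (0 of 8 fitted genes). The call of Fkbp5 for WT LPS over WT M0 was lost with quantile normalization. Ddit4 and Hsd11b1 were called in that comparison with quantile normalization, with the compared groups alone and with the replicate number as a block.

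**Figure D3:**
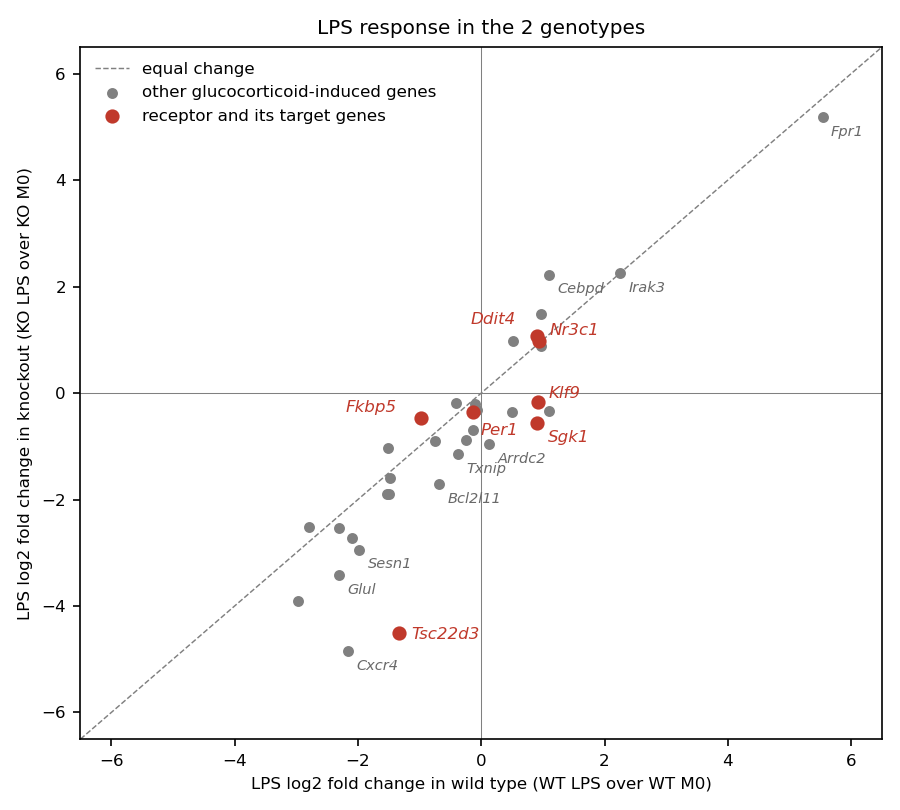
Log2 fold change with LPS in KO cells (vertical axis) against that in WT cells (horizontal axis) for the 7 fitted genes, without error bars. Grey points are the 28 fitted genes of the list of other glucocorticoid-induced genes. Tsc22d3 lies at -4.50 in KO and -1.33 in WT cells and Sgk1 at -0.57 and 0.91, both below the line of equal change, and Nr3c1 lies close to it at 0.97 and 0.94.

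Of 35 other genes known to be induced by glucocorticoids, 28 were fitted, and 6 were lower and 1 higher in KO LPS than in WT LPS (limma, adjusted p under 0.05). Over all genes, 2.58% were called lower and 4.59% higher. This list and those below were chosen with earlier results of these data known, so their counts are a description. With no filter on low values the count of called genes of the list was 1. The median log2 fold change of the 28 was -0.30, beside 0.03 over all genes, and 21 did not pass. Cxcr4, a chemokine receptor, was at 9.11 and 10.7 TPM in KO LPS libraries, 36.3 and 73.6 TPM in WT LPS libraries, 314 TPM in the KO M0 library, and 190 and 291 TPM in WT M0 libraries. It fell with LPS in both genotypes and by more in KO cells, like Tsc22d3. Its log2 fold change for KO LPS over WT LPS was -2.28 ± 0.30 (limma adjusted p = 0.00128), and its LPS change in KO minus that in WT was -2.69 ± 0.48 (adjusted p = 0.0265, and up to 0.253 over the alternatives). Glul, glutamine synthetase, was at 37.5 and 34.5 TPM in KO LPS, 68.7 and 89.5 TPM in WT LPS, 393 TPM in KO M0, and 379 and 401 TPM in WT M0 libraries, with a log2 fold change of -1.10 ± 0.17 for KO LPS over WT LPS (limma adjusted p = 0.00303). It passed under every alternative that was run.

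Arrdc2, an arrestin-domain gene, was lower in the KO LPS libraries than in all others. It was at 10.4 and 8.33 TPM in KO LPS, 21.8 and 19.7 TPM in WT LPS, 19.1 TPM in KO M0, and 20.9 and 17.2 TPM in WT M0 libraries (log2 fold change for KO LPS over WT LPS -1.08 ± 0.19, limma adjusted p = 0.00742, and 0.0752 without KO LPS replicate 2). Cebpd, a transcription factor that LPS also induces, was the gene that was higher, at 261 and 251 TPM in KO LPS, 165 and 132 TPM in WT LPS, 53.9 TPM in KO M0, and 71.7 and 65.8 TPM in WT M0 libraries. Its log2 fold change for KO LPS over WT LPS was 0.79 ± 0.16 (limma adjusted p = 0.0155, and up to 0.179, without WT LPS replicate 2). The remaining 3 genes lower in KO LPS were Sesn1, Txnip and Bcl2l11, with log2 fold changes of -1.12, -0.72 and -0.82 and limma adjusted p of 0.017, 0.018 and 0.0349. Each of these lost its call when some single LPS library was left out, Txnip and Bcl2l11 with any of the 4 and Sesn1 with any but WT LPS replicate 1. Dusp1, the phosphatase that switches off p38 and is a classic receptor target, was at 229 and 254 TPM in KO LPS libraries and at 301 and 213 TPM in WT LPS libraries, which overlap (log2 fold change -0.07 ± 0.20, limma adjusted p = 0.897).

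**Figure D4:**
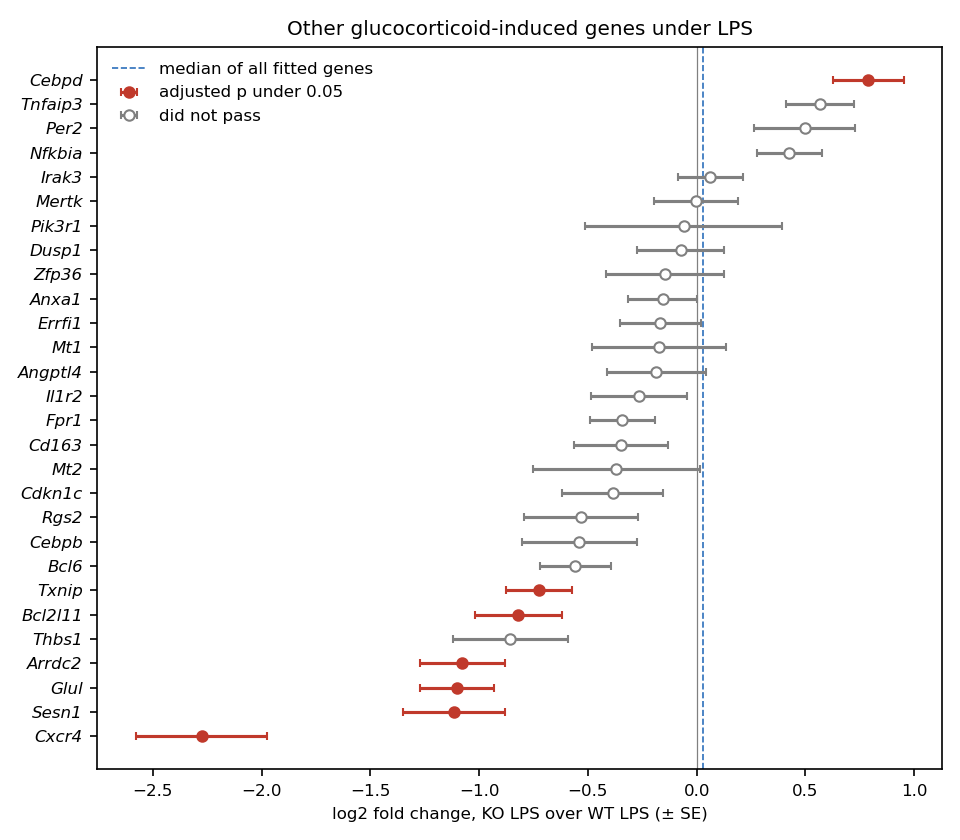
Log2 fold change for KO LPS over WT LPS on log2(TPM + 1) (horizontal axis, bars ± SE) of the 28 fitted genes of the list of other glucocorticoid-induced genes. Filled points passed the limma test, 6 below 0 and Cebpd above 0, and the dashed line is the median of all fitted genes.

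With LPS, 5 of the 28 rose and 16 fell in KO cells, and 6 rose and 13 fell in WT cells, beside 13.8% of all genes called higher and 24.3% lower in KO cells and 15.0% and 29.6% in WT cells. The medians were -0.93 in KO and -0.40 in WT cells, beside -0.24 and -0.21 over all genes. Fpr1, the formyl peptide receptor, rose by a log2 fold change of 5.18 in KO and 5.54 in WT cells (limma adjusted p = 5.73e-08 and 5.3e-09). Irak3, a brake on Toll-like receptor signalling, rose by 2.25 in each (adjusted p = 6.86e-06 in KO and 1.17e-06 in WT cells by limma). Genes of the list thus moved both ways with LPS. Between KO M0 and WT M0, limma called 0 of the 28, and 0 had an unadjusted p under 0.05.

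Chaperones, nuclear partners and steroid-handling genes of the receptor did not pass between genotypes. Of 31 such genes 28 were fitted, and limma called 0 between KO LPS and WT LPS, beside 7.16% of all genes. An unadjusted p under 0.05 was found for 2, and the median log2 fold change was 0.06. With LPS, 2 rose and 5 fell in KO cells (25.0% called), and 5 rose and 6 fell in WT cells (39.3%), both below the 38.1% and 44.6% of all genes called. Fkbp4, the co-chaperone that carries the receptor towards the nucleus, was at 19.1 and 13.1 TPM in KO LPS, 17.8 and 15.9 TPM in WT LPS, 35.9 TPM in KO M0, and 41.4 and 38.8 TPM in WT M0 libraries, and fell with LPS by a log2 fold change of -1.13 ± 0.25 in KO and -1.21 ± 0.20 in WT cells (limma adjusted p = 0.00487 and 0.000767). Ipo13, a nuclear importer of the receptor, rose with LPS by 0.61 ± 0.20 in KO and 0.95 ± 0.16 in WT cells (limma adjusted p = 0.033 and 0.000906). The call in KO cells was lost without any single LPS library (adjusted p = 0.0508 to 0.113), with the compared groups alone and without both WT LPS libraries. The major chaperone Hsp90ab1 rose by 0.59 ± 0.18 in KO and 0.67 ± 0.14 in WT cells (limma adjusted p = 0.0242 and 0.00368). Fkbp4, Ipo13 and Hsp90ab1 had the same sign in both genotypes. Hexim1, an inhibitor of transcription elongation that can bind the receptor, fell by -0.76 ± 0.19 in KO and -0.61 ± 0.16 in WT cells (limma adjusted p = 0.0101 and 0.00881, the last 0.055 without WT LPS replicate 1 and 0.0506 without WT M0 replicate 2).

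Members of the same gene families were counted as well, beside the 7.16% of all genes called between KO LPS and WT LPS. Of 24 such genes 20 were fitted, and limma called 1 between KO LPS and WT LPS, Klf10, at 13.8 and 12.2 TPM in KO LPS and 23.2 and 28.8 TPM in WT LPS libraries (log2 fold change -0.94 ± 0.21, adjusted p = 0.0229, and up to 0.177, without WT LPS replicate 2). Tsc22d1, a paralogue of Tsc22d3, was at 84.6 and 75.5 TPM in KO LPS, 60.2 and 54.7 TPM in WT LPS, 27.4 TPM in KO M0, and 25.8 and 26.3 TPM in WT M0 libraries. It rose with LPS where Tsc22d3 was lower, by a log2 fold change of 1.51 ± 0.20 in KO and 1.11 ± 0.16 in WT cells (limma adjusted p = 0.000183 and 0.000294).

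Of the listed genes that glucocorticoids repress in macrophages, most were called higher in KO LPS than in WT LPS. Because the list was chosen with earlier results of these data known, its counts are no test of the receptor's action. Of 20 such genes 18 were fitted, and 12 were higher and 0 lower in KO LPS than in WT LPS (limma). Of all genes, 4.59% were called higher and 2.58% lower. The median log2 fold change of the 18 was 1.37, beside 0.03 over all genes. Il12b, a subunit of interleukin 12, was at 85.3 and 95.0 TPM in KO LPS libraries and 11.3 and 7.68 TPM in WT LPS libraries (log2 fold change 3.14 ± 0.22, adjusted p = 7.56e-05 by limma). Il6 was at 617 and 718 TPM in KO LPS libraries and 137 and 70.6 TPM in WT LPS libraries (log2 fold change 2.74 ± 0.27, adjusted p = 0.00021 by limma). LPS induces these genes, and 18 of 18 rose in KO and 15 of 18 in WT cells, beside 13.8% and 15.0% of all genes. Without LPS, limma called 0 of the 18 between KO M0 and WT M0, and 0 had an unadjusted p under 0.05.

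Markers of other cell types moved with the groups as follows. The sum of 9 neutrophil markers was 106 to 161 TPM in KO LPS and 208 to 333 TPM in WT LPS libraries, and 5.50 TPM in KO M0 and 8.20 to 8.68 TPM in WT M0 libraries, with 2 of the markers, S100a8 and Camp, at a mean of at least 1 TPM. The sum of 10 stromal markers was 26.5 to 31.2 TPM in KO LPS and 21.2 to 23.4 TPM in WT LPS libraries, and 29.5 TPM in KO M0 and 42.4 to 53.1 TPM in WT M0 libraries, with 6 of 10 listed at 0 in every WT LPS library. The sum of 10 dendritic cell markers was 65.2 to 73.6 TPM in KO LPS, 88.9 to 96.6 TPM in WT LPS, 84.1 TPM in KO M0, and 96.1 to 99.7 TPM in WT M0 libraries. Of these markers 3 were fitted. Their median log2 fold change for KO LPS over WT LPS was 0.90, opposite in direction to the sums, and a median does not show the direction of each marker. Limma called 0 of the 3, and 3 had an unadjusted p under 0.05. Lymphocyte markers summed to at most 14.6 TPM, and erythroid and mast cell markers to at most 1.01 TPM. The part of these other cell types in the differences of Tsc22d3, Klf9, Sgk1 and the lists was not tested.

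The genes whose levels followed each of 3 members most closely are given as a description, by Pearson's r of log2(TPM + 1) over the same 7 libraries, which share their groups. For Nr3c1 they were Ttc9c (r = 0.997), the kinase Tbk1 (r = 0.997) and Arfgef1 (r = 0.996). For Tsc22d3 they were Cd74 (r = 0.997), the invariant chain of MHC class II, the chemokine receptor Ccr3 (r = 0.996) and Txnip (r = 0.995). For Hsd11b1 they were the clock repressor Bhlhe41 (r = 0.947), Sesn2 (r = 0.933) and Gclm (r = 0.915). Cd74 was at 2068 and 1969 TPM in KO LPS, 4645 and 4351 TPM in WT LPS, 6299 TPM in KO M0, and 5839 and 6593 TPM in WT M0 libraries, the same order of KO LPS, WT LPS and untreated libraries as Tsc22d3. With 4 groups in 7 libraries, a high r mostly restates the order of the groups.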

How the data were processed

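The authors deposited a table of TPM (transcript levels per length, set to a fixed sum) per gene for each of 7 libraries, with 23337 genes that sum to 1000000 in each. Per the submitters' processing notes the build was mm10. The sources used here name no aligner, counting tool or annotation. TPM keep no depth, so no counting interval is given. Genes with a mean of at least 1 TPM (11096) were fitted as log2(TPM + 1) with limma 3.58.1 (R 4.3.3), group means over all 7 libraries, a mean-variance trend (residual degrees of freedom 3, with a prior of 7.3) and Benjamini-Hochberg adjustment at 0.05 within each of 5 comparisons. The spread of KO M0, a single library, is taken from the other groups. The steps were tested on simulated data.

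The 8 genes and all lists were chosen with earlier results of these data known, and the lists share genes. From each list up to 4 genes with the smallest p between KO LPS and WT LPS, and up to 2 in each LPS response, are named. Dusp1 and Hsp90ab1 and the members of small counts were named after their values were seen. Coordinates and promoters are from RefSeq (GRCm38.p6), with 20756 gene names matched by symbol, 2330 by synonym and 251 not matched. Alternatives added after seeing the data were a fit without the WT LPS libraries, autosomal genes alone, a minimum of 5 TPM and quantile normalization. Plots were made in matplotlib 3.10.9.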

Additional observations from a re-analysis of the deposited data

Results flagged for a closer look

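For 6 genes outside the set of 8, the LPS change in KO cells differed from that in WT cells by a term for the difference in the limma fit across all genes. Values are the LPS change in KO minus the LPS change in WT, on the log2 scale. Tsc22d3, at -3.17, and Sgk1, at -1.48, are given as a description with no p-value, because both were chosen with these values known. The difference was -2.69 for Cxcr4 (limma adjusted p = 0.0265). It was 3.02 for Il12b (adjusted p = 0.00497 by limma), 4.70 for Ccl7 (0.00583), 3.71 for Ccl2 (0.00516) and 2.68 for Il6 (0.0167). With no filter on low values the limma adjusted p was 0.253 for Cxcr4, 0.108 for Il12b, 0.158 for Ccl7, 0.132 for Ccl2 and 0.2 for Il6. Without WT M0 replicate 1 it was 0.143 for Cxcr4, 0.0719 for Ccl7, 0.0617 for Ccl2 and 0.106 for Il6. Il6 also lost its call with median-ratio scaling (adjusted p = 0.0561), without KO LPS replicate 2 (0.054) and without WT M0 replicate 2 (0.0548). Cxcr4 also lost its call with quantile normalization (adjusted p = 0.0511), without KO LPS replicate 1 (0.0581) and without KO LPS replicate 2 (0.0516). The difference was -5.70 for Xist (limma adjusted p = 8.2e-05), which was detected in the WT LPS libraries at 47.2 and 55.4 TPM although they are labelled male. All these comparisons share the WT LPS libraries, and whether what sets those libraries apart bears on the differences was not tested.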

How the results depend on the processing

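No result among the counts and named genes reversed its call under the alternatives run. Of the fold changes of the 7 fitted genes under the alternatives, Hsd11b1 not being among them, 434 of 480 moved by less than the residual SD between replicates. The count of genes called between KO LPS and WT LPS was 795. It was 307 with no filter on low values, 362 at an adjusted p of 0.01 and 385 to 804 with a library left out. Of the other glucocorticoid-induced genes 7 were called there, 1 with no filter, 3 at an adjusted p of 0.01 and 2 to 8 with a library left out, the lowest without KO LPS replicate 2. Between KO M0 and WT M0 the count was 1, and it was 2 with a pseudocount of 0.1, 20 with no filter, 40 with the compared groups alone and 1 to 6 with a library left out. Between KO LPS and KO M0 it was 4233, and 2681 at an adjusted p of 0.01. For the difference of the LPS changes it was 152, and it was 92 with a pseudocount of 0.1, 10 with no filter, 28 at an adjusted p of 0.01 and 16 to 139 with a library left out. Cxcr4, the other glucocorticoid-induced gene called there, made a count of 1, and the count was 0 with quantile normalization, 0 with no filter, 0 at an adjusted p of 0.01 and 0 to 2 with a library left out.

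Median-ratio scaling moved the median gene by 0.20 on the log2 scale for WT LPS over WT M0 and by 0.23 for KO LPS over KO M0. The split of higher and lower calls became 2421 and 2332 in WT (1665 and 3284 without it) and 2108 and 1842 in KO cells (1533 and 2700 without it). Between KO LPS and WT LPS it was 509 and 286, and 395 and 340 with quantile normalization.

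Deviations of same-numbered libraries from the group means correlated at 0.298 between KO LPS and WT M0, 0.181 between KO LPS and WT LPS and 0.08 between WT LPS and WT M0, and with 2 numbers and no label that ties them to a mouse or a batch they were not taken as pairs. With the replicate number as a block, 1115 genes were called between KO LPS and WT LPS and 5632 between WT LPS and WT M0. No paired analysis was possible for comparisons with KO M0 because its single library carries no number.

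With 1 KO M0 library and 2 libraries in each other group, 3 residual degrees of freedom limit every test, and the fit leans on the spread shared across genes. Depth is unknown, and levels near 1 TPM, such as those of Hsd11b1, come without a counting error.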

Other observations

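Genes of the circadian clock, to which Per1 belongs, were counted beside all genes. Of 17 such genes 15 were fitted, and 0 rose and 6 fell in KO cells, and 1 rose and 7 fell in WT cells (limma). These are 40.0% called in KO and 53.3% in WT cells, near the 38.1% and 44.6% of all genes, among which lower calls were also the more common. Dbp, a clock output factor, fell by a log2 fold change of -2.08 ± 0.27 in KO and -2.08 ± 0.22 in WT cells (limma adjusted p = 0.000197 and 3.53e-05), and Tef, its relative, by -2.09 ± 0.25 and -1.81 ± 0.20 (adjusted p = 0.000104 and 5.21e-05 by limma). Per2 fell by -1.02 ± 0.29 in KO and -1.51 ± 0.23 in WT cells (limma adjusted p = 0.0169, and 0.0727 without KO LPS replicate 1, and 0.000455 in WT). Between KO LPS and WT LPS the clock repressor Bhlhe41 was lower, at 49.1 and 25.9 TPM in KO LPS and 112 and 89.0 TPM in WT LPS libraries (log2 fold change -1.46 ± 0.27, limma adjusted p = 0.00853, and 0.0588 without WT LPS replicate 1). Nr1d1, which encodes REV-ERBα, was higher, at 3.48 and 2.99 TPM in KO LPS and 1.21 and 1.30 TPM in WT LPS libraries (log2 fold change 0.90 ± 0.21, limma adjusted p = 0.0266, a call that was lost when any single LPS library was left out). Bhlhe41 thus had the same order of groups as Klf9, with WT LPS libraries above all others.

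FoxO target genes, a list that shares Sesn1, Txnip, Bcl2l11 and Bcl6 with the glucocorticoid-induced one, had 13 of 15 genes fitted. In KO LPS against WT LPS 1 was higher and 3 were lower (limma), beside 4.59% of all genes called higher and 2.58% lower. The median log2 fold change was 0.13, beside 0.03 over all genes. With LPS 1 rose and 9 fell in KO cells, and 1 rose and 6 fell in WT cells, beside 13.8% of all genes called higher and 24.3% lower in KO cells and 15.0% and 29.6% in WT cells. Cdkn1b, a cell cycle inhibitor, was at 52.0 and 45.2 TPM in KO LPS, 27.1 and 28.9 TPM in WT LPS, 33.9 TPM in KO M0, and 26.8 and 30.0 TPM in WT M0 libraries (log2 fold change for KO LPS over WT LPS 0.77 ± 0.17, limma adjusted p = 0.0212, a call that was lost when any single LPS library was left out).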
